A study of Sus scrofa domesticus with 34 samples.

Results

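Mediator is a large protein complex that carries signals from DNA-bound transcription factors to RNA polymerase II. Its subunits are described here in pig libraries labelled muscle, across 4 diets that differed in vitamin D. The members were all genes of the 34 count tables whose symbol is MED followed by a number, with or without a final L. They were chosen by name and not by their values, though with earlier results of these data known. The rule found 29 genes among 31907 gene identifiers, of which 15029 had a symbol. All 29 passed the filter on low counts that kept 13974 genes for testing, and none of them had a count of 0 in any library. MED29 had no identifier in the table of gene names and was not analysed here.

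Each library came from 1 pig and was made by QuantSeq, which reads a single fragment at the 3′ end of a polyadenylated RNA. The control diet, standard cholecalciferol (vitamin D3), held 2000 IU per kg of feed for growing pigs and 1500 IU for finishing pigs (n = 8, with 4 females and 4 castrated males). The increased cholecalciferol diet held 3000 and then 2500 IU (n = 10, with 6 females and 4 castrated males). The combination diet was the control diet with a further 1000 IU of 25(OH)D throughout (n = 8, 4 of each sex). 25(OH)D, or calcidiol, is cholecalciferol with an added hydroxyl group, the form that the liver makes. The 25(OH)D diet held 2000 and then 1500 IU of 25(OH)D with no cholecalciferol (n = 8, 4 of each sex). No group went without vitamin D, so every difference is between supplemented diets.

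Mediator is built from a head, a middle and a tail joined by the scaffold subunit MED14, and a separable kinase module can bind to it. The head and middle touch RNA polymerase II, the tail receives most activators, and the kinase module blocks polymerase binding while it is attached. MED1 carries the motifs through which nuclear receptors such as VDR, the vitamin D receptor, bind Mediator, and MED17 is the central subunit of the head.

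The libraries differed in ways that bear on every comparison below. Total gene counts ran from 1.34 to 30.4 M (mega), with a median of 6.67 M. Depth differed by runs of the files' own numbers, with 4.08 to 13.2 M counts for numbers 1 to 24, 16.8 to 30.4 M for 25 to 29 and 1.34 to 2.69 M for 30 to 34. The last run held 4 of the 8 combination libraries and 1 of the 8 25(OH)D libraries. In it the summed level of EIF1AY and KDM5D, both Y-linked, was 5.71 to 7.83 CPM (counts per M counts) in the 4 libraries labelled female, which overlapped the 6.70 to 24.5 of 15 castrated males of the other runs, while 14 other females lay between 0.588 and 4.77. For Mediator members, values without file numbers 30 to 34 are given below beside the results that these libraries moved most. The labelled tissue was checked by its markers. The summed level of the skeletal muscle markers ran from 947 to 6921 CPM (7 of 12 genes measured). Markers of neurons summed to 3083 to 8864 (7 of 8 genes measured), of oligodendrocytes to 2290 to 14156 (5 of 6), of astrocytes to 1573 to 6362 (5 of 5) and of cerebellum to 380 to 3689 (8 of 8). Forebrain markers summed to 8.05 to 138 (6 of 6), liver markers to 227 to 1485 (4 of 4) and pancreas markers to 0.476 to 171 (2 of 4). No measured marker was at 0 in every library. In such mixed tissue RNA, fewer cells of a type and less RNA per cell cannot be told apart.

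Levels of the subunits spread widely. Levels are in CPM after scaling by the trimmed mean of M-values (TMM), as mean ± SD over 34 libraries. Because 3′ counting takes 1 fragment per transcript, these levels do not scale with transcript length. Reads outside annotated features, 16.4 to 29.9% of all reads in a library, were not counted for any gene. Differences in level between genes need therefore not be differences in transcript amount. MED1 was the most abundant at 92.1 ± 14.6 CPM, followed by MED28, at 89.1 ± 17.0 CPM. MED7 and MED19 of the middle had 50.9 ± 10.1 and 50.0 ± 9.60 CPM, and MED13L of the kinase module had 47.2 ± 11.7 CPM. These 5 genes came from 3 different modules. At the other end were MED21, which pairs with MED7 in the middle, with 8.85 ± 3.10 CPM and MED11 of the head with 6.87 ± 2.30 CPM. MED20 and MED18, which form a pair in the head, had 5.32 ± 1.80 and 4.95 ± 1.89 CPM, and MED30 had 2.60 ± 1.28 CPM. MED30 and MED18, the least abundant, also varied most between libraries relative to their means. The coefficient of variation was 49.3% for MED30 and 38.2% for MED18, against 13.5% for MED27 and 15.8% for MED1.

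**Figure D1:**
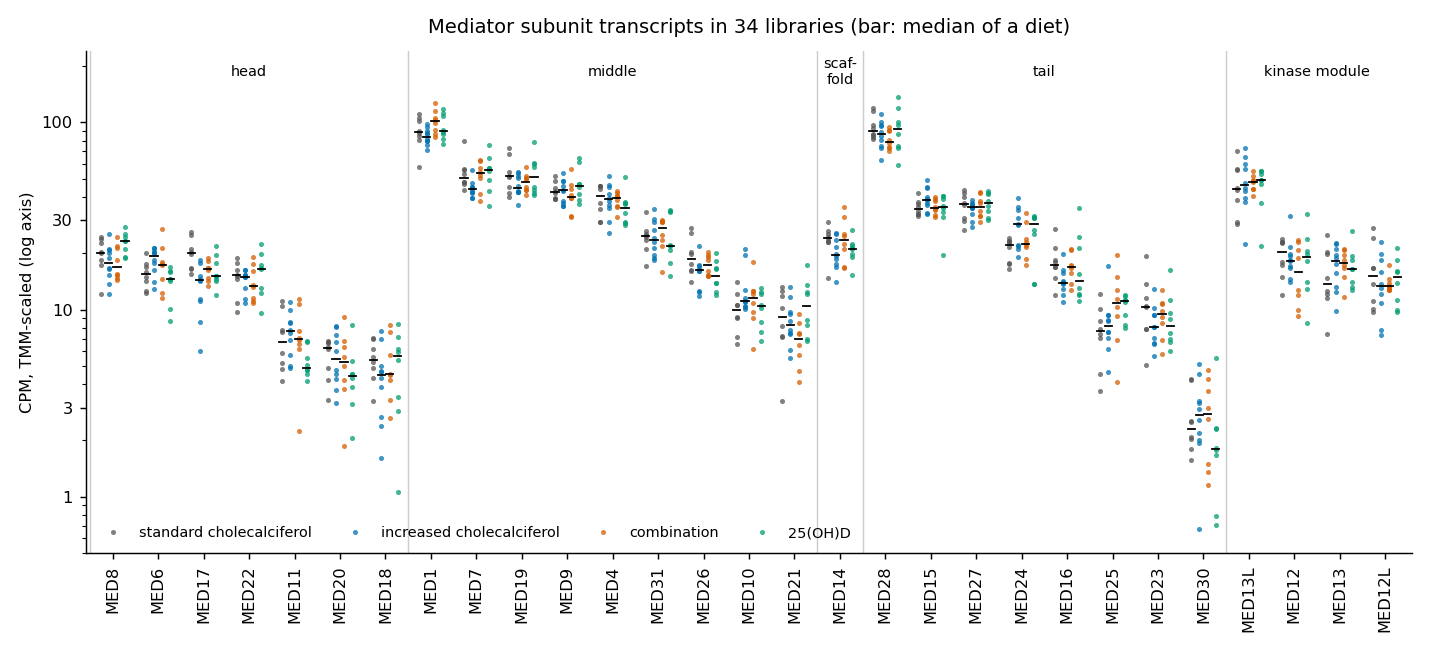
Level of each of the 29 subunits in every library (points, CPM scaled by TMM, log axis), by module and coloured by diet, with the median of each diet as a bar. MED1 and MED28 lie highest and MED30 lowest, and the 4 diets overlap for every subunit shown.

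Summed over subunits, the 9 middle genes had 337 ± 25.7 CPM and the 8 tail genes 224 ± 16.7 CPM. The 4 kinase module genes summed to 97.2 ± 18.7 CPM, the 7 head genes to 84.2 ± 8.17 CPM and MED14 alone to 22.1 ± 4.68 CPM. The sum of all 29 was similar in size across diets, with 778 ± 51.9 CPM (SD, n = 8) on the control diet and 743 ± 22.6 (SD, n = 10) on increased cholecalciferol. It was 762 ± 34.3 (SD, n = 8) on the combination and 778 ± 43.5 (SD, n = 8) on 25(OH)D. The libraries spanned 721 to 855 CPM on the control diet, 715 to 778 on increased cholecalciferol, 696 to 798 on the combination and 722 to 843 on 25(OH)D, so that all 4 ranges overlapped. By mean, the control diet was the highest of the 4 for 9 members, increased cholecalciferol for 8, 25(OH)D for 7 and the combination for 5. No diet was the highest for most of the subunits.

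Both large kinase module subunits have a paralog, a second gene for the same place in the complex. MED13 and MED13L each tie the module to the rest of Mediator, and MED13L exceeded MED13 in 34 of 34 libraries, by a median of 2.93 times (1.65 to 4.15). MED12, which activates the kinase, and its paralog MED12L were closer to each other. Their ratio had a median of 1.14 (0.696 to 4.35) and was above 1 in 19 of 34 libraries. Reads shared by near-identical stretches of paralogs would not be counted for either gene, and reads outside annotated features were not counted. These ratios are uncertain to that extent.

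MED17, the central head subunit, was lower on increased cholecalciferol than on the control diet before adjustment, and the difference did not pass adjustment over all genes. On the control diet MED17 ran from 15.5 to 25.8 CPM with a median of 20.1. On increased cholecalciferol it ran from 6.03 to 18.4 CPM with a median of 14.3. All 10 libraries of the increased diet lay below the control median and 8 of them below the lowest control library, while the remaining 2 overlapped the control range. The lowest value, 6.03 CPM in replicate 5, rested on 28 reads. The means were 20.1 ± 3.87 CPM (SD, n = 8) and 13.2 ± 3.91 CPM (SD, n = 10). MED17 thus differed by −0.61 in log2 (SE 0.16, 95% interval −0.93 to −0.28; p = 0.000583 and adjusted p = 0.623 by edgeR's quasi-likelihood test with Benjamini-Hochberg adjustment). That p was the 6th smallest of the 13974 genes in this comparison, in which no gene of any kind passed adjustment (0%).

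By mean, both diets with 25(OH)D lay between these. MED17 ran from 13.4 to 18.8 CPM on the combination (median 16.5), where 8 of 8 libraries were below the control median and 3 below its lowest library. It ran from 12.02 to 21.8 CPM on 25(OH)D (median 15.1), with 7 of 8 below the control median and 5 below its lowest library. Both ranges overlapped those of the control and of increased cholecalciferol. The log2 fold changes from the control were −0.32 (SE 0.17, p = 0.0712, adjusted p = 0.999) for the combination and −0.31 (SE 0.17, p = 0.0794, adjusted p = 1.00) for 25(OH)D, by edgeR. The 3 diets are compared with the same control libraries, so these 3 differences are not independent of each other. In the combination against the control, MED17 differed by −0.38 without file numbers 30 to 34 (p = 0.106), by −0.52 within numbers 1 to 24 (p = 0.0887), by −0.30 with these 2 diets alone in the fit (p = 0.0491, adjusted p = 0.997) and by −0.16 with the marker list levels in the fit (p = 0.377, edgeR). The skeletal muscle list level was 6.84 ± 0.62 on the combination and 6.09 ± 0.55 on the control diet, a difference of 0.75 (exact permutation p = 0.0238, two-sided, adjusted p = 0.500), and its 7 genes summed to 1878 to 6921 CPM on the combination. In 25(OH)D against the control, MED17 differed by −0.18 with the marker list levels in the fit. Against increased cholecalciferol, MED17 differed by 0.28 on the combination (SE 0.17, p = 0.0959), or 0.16 within file numbers 1 to 24, and by 0.30 on 25(OH)D (SE 0.16, p = 0.0799). Between the combination and 25(OH)D the difference was −0.01, with a 95% interval of −0.37 to 0.35. The order by mean was control, 25(OH)D, combination and increased cholecalciferol, in which the middle 2 (16.3 ± 3.19 and 16.1 ± 1.87 CPM; SD, n = 8 each) were within their spread of each other.

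**Figure D2:**
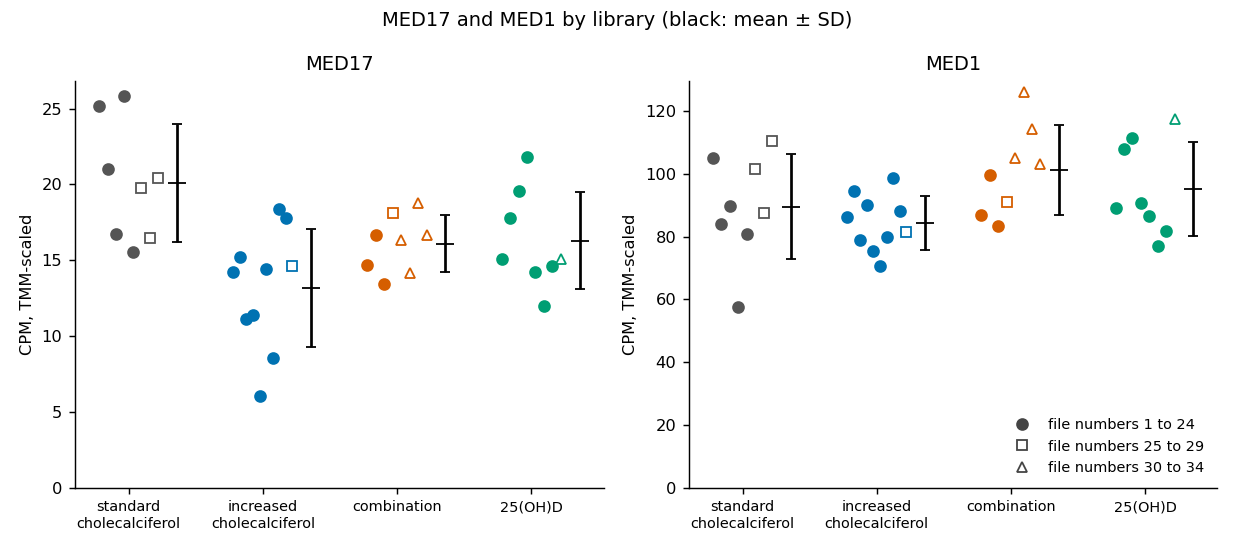
MED17 (left) and MED1 (right) in each library (CPM scaled by TMM) by diet, with the mean ± SD in black and the run of file numbers as the marker shape. MED17 on increased cholecalciferol lies between 6.03 and 18.4 CPM against 15.5 to 25.8 on the control diet, and 5 libraries of file numbers 30 to 34 hold MED1 values of 103 CPM or more.

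The MED17 difference between increased cholecalciferol and the control had the same direction in both sexes and within file numbers 1 to 24. Females had 21.6 ± 4.86 CPM on the control diet (SD, n = 4) and 12.03 ± 4.31 on increased cholecalciferol (SD, n = 6). Castrated males had 18.7 ± 2.40 CPM (SD, n = 4) and 14.9 ± 2.87 (SD, n = 4). The test of the interaction of diet and sex gave p = 0.335 for MED17 (edgeR). Within file numbers 1 to 24 the means were 20.9 ± 4.71 CPM (SD, n = 5) and 13.01 ± 4.11 (SD, n = 9), and the log2 fold change was −0.68 (SE 0.22). File numbers 25 to 29 held 3 control libraries and 1 of the increased diet, too few for a value of their own. The skeletal muscle marker list differed in the same comparison before adjustment but not after it. Its mean log2 CPM was 6.09 ± 0.55 on the control diet and 6.56 ± 0.34 on increased cholecalciferol (exact permutation p = 0.0401, two-sided, adjusted p = 0.500 over 54 tests of library measures). Its 7 measured genes summed to 947 to 4774 CPM on the control diet and to 1569 to 4161 CPM on the increased diet. With the levels of the muscle and cerebellum lists in the fit, MED17 differed by −0.47 (SE 0.16, p = 0.00649, adjusted p = 0.764, edgeR).

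**Figure D3:**
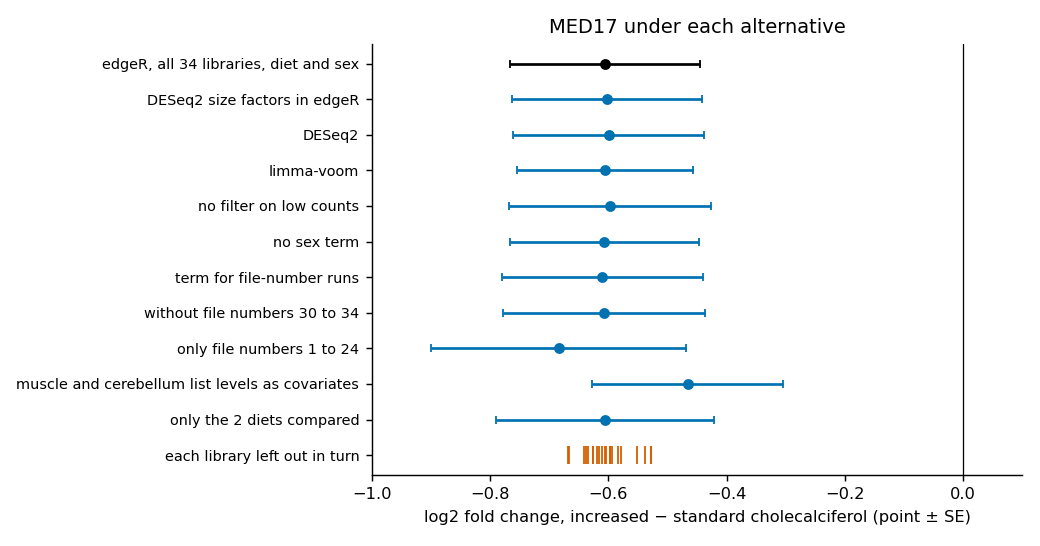
Log2 fold change of MED17, increased minus standard cholecalciferol, with its SE, in the fit over all 34 libraries (black) and under 10 other settings (blue), with the values after leaving out each library in turn as orange ticks. All points lie below 0, between −0.68 and −0.47, and the ticks run from −0.67 to −0.53.

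MED1, the nuclear receptor subunit, differed little between diets. It ran from 57.6 to 110 CPM on the control diet (median 88.7) and from 70.8 to 98.6 CPM on increased cholecalciferol (median 83.8). It ran from 83.4 to 126 CPM on the combination (median 101) and from 77.0 to 117 CPM on 25(OH)D (median 89.96). The 4 ranges overlapped. Against the control, the log2 fold changes of MED1 were −0.09 for increased cholecalciferol (95% interval −0.32 to 0.14), 0.17 for the combination (−0.07 to 0.41) and 0.08 for 25(OH)D (−0.16 to 0.33), with edgeR p of 0.441, 0.159 and 0.484. Without file numbers 30 to 34 the combination differed from the control by −0.010 and 25(OH)D by 0.031. The 25(OH)D diet differed by 0.17 from increased cholecalciferol (p = 0.137) and the combination by 0.09 from 25(OH)D (p = 0.471). Each of these 5 intervals lies inside a change of 1.5-fold in either direction.

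MED1 had an unadjusted p below 0.05 between the combination and increased cholecalciferol, which hold the same total of vitamin D. The log2 fold change was 0.26 (SE 0.11, 95% interval 0.03 to 0.49, p = 0.0279, adjusted p = 0.931, edgeR). This value was lower without file numbers 30 to 34 and with a term for the runs. That run held 4 combination libraries and no library of increased cholecalciferol, so run and diet cannot be told apart within it. Its libraries also had cerebellum list levels (mean log2 CPM) of 6.35 to 6.97, against a median of 5.45 over all 34. The parts of diet, run and tissue makeup in the MED1 level of these libraries were not tested separately. MED1 was 113 ± 9.42 CPM in file numbers 30 to 34 (SD, n = 5), with every library at 103 CPM or above, and 87.3 ± 11.995 CPM in numbers 1 to 24 (SD, n = 24). Without file numbers 30 to 34 the difference was 0.07 (p = 0.611), within numbers 1 to 24 it was 0.06 (p = 0.728), and with a term for the runs it was 0.06 (p = 0.612, edgeR). In the fit with diet, sex and run, MED1 was higher by 0.37 in numbers 30 to 34 than in 1 to 24 (SE 0.14, p = 0.0108, adjusted p = 0.243). In that run test 0 of 29 members passed adjustment by edgeR, against 0.0716% of all genes, and 2 had an unadjusted p below 0.05, against 13.2% of all genes. The second was MED11 of the head, with −0.61 (SE 0.30).

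None of the 29 members passed adjustment in any of the 6 diet comparisons, by edgeR, DESeq2 or limma-voom. No gene of the table did either, in the fits with diet and sex over all 34 libraries. Counts of members at an unadjusted p below 0.05 are therefore read against the share of all genes at that p. In increased against standard cholecalciferol that was 4 of 29 members by DESeq2 and by limma-voom, against 1207 and 1479 of the 13974 genes. By edgeR it was likewise 4 of 29 members, against 7.77% of all genes. They were MED17, MED24 of the tail (0.42, SE 0.17, p = 0.0177), MED26 (−0.31, SE 0.14, p = 0.0350) and MED7 (−0.27, SE 0.13, p = 0.0406), where MED26 docks elongation factors and MED7 spans the middle. MED24 ran from 16.5 to 24.2 CPM on the control diet (median 22.1) and from 19.0 to 39.6 on increased cholecalciferol (median 28.5), with overlapping ranges. MED7 ran from 43.4 to 79.7 CPM and from 39.4 to 55.9 CPM, and the 79.7 belonged to control replicate 1. Without that library MED7 differed by −0.16 (p = 0.210) and MED26 by −0.21 (p = 0.140). With the marker list levels in the fit, 1 member remained at that p, MED17, against 885 of the 13974 genes. MED24 then differed by 0.30 (p = 0.103, edgeR).

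By module, 8 of the 9 middle members were below 0 in increased against standard cholecalciferol, with a median of −0.04. The head had 4 of 7 below 0 (median −0.06), the tail 4 of 8 (median 0.02), the kinase module 2 of 4 (median 0.03), and MED14 was at −0.23. Over all 29 members the median was −0.04 and 10 were above 0, while over all genes the median was 0.01 and 50.8% were above 0. Between the combination and the control, 0 of 29 members had an unadjusted p below 0.05 by edgeR, against 4.34% of all genes. It was also 0 by DESeq2 and by limma-voom, against 660 and 685 of the 13974 genes. By edgeR 13 members were above 0. MED25, a tail subunit contacted by activators, had the highest change, 0.48 (SE 0.25), and MED21 the lowest, −0.42 (SE 0.24). MED25 differed by 0.30 without file numbers 30 to 34, by 0.25 by limma-voom and by 0.17 with the marker list levels in the fit, while MED21 differed by −0.25 by limma-voom. The muscle list differed in this comparison too before adjustment but not after it, as given above for MED17. Between 25(OH)D and the control, at matched doses, 1 of 29 members was at that p, MED26 (−0.35, SE 0.15, p = 0.0270, edgeR), against 3.23% of all genes. Total gene counts differed in this comparison before adjustment but not after it. Their means were 5.89 M on 25(OH)D and 11.1 M on the control diet. The exact permutation p was 0.0452 (two-sided, adjusted p = 0.500), and the part of depth in these differences was not tested. MED25 was highest there at 0.40 (SE 0.25), with 0.70 within file numbers 1 to 24 (p = 0.0298, adjusted p = 1.00, edgeR) and 0.23 with the marker list levels in the fit. MED30 was lowest at −0.43 (SE 0.37), with −0.19 with a run term, −0.64 without file numbers 30 to 34 and −0.73 by limma-voom.

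MED26 ran from 14.1 to 27.4 CPM on the control diet (median 18.6), from 11.8 to 21.8 on increased cholecalciferol (median 16.2), from 15.1 to 20.4 on the combination (median 17.3) and from 12.02 to 20.2 on 25(OH)D (median 15.2). All 4 ranges overlapped, and the control libraries reached highest. In 25(OH)D against the control it had p = 0.0966 without control replicate 1 and p = 0.152 with the marker list levels in the fit (edgeR).

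**Figure D4:**
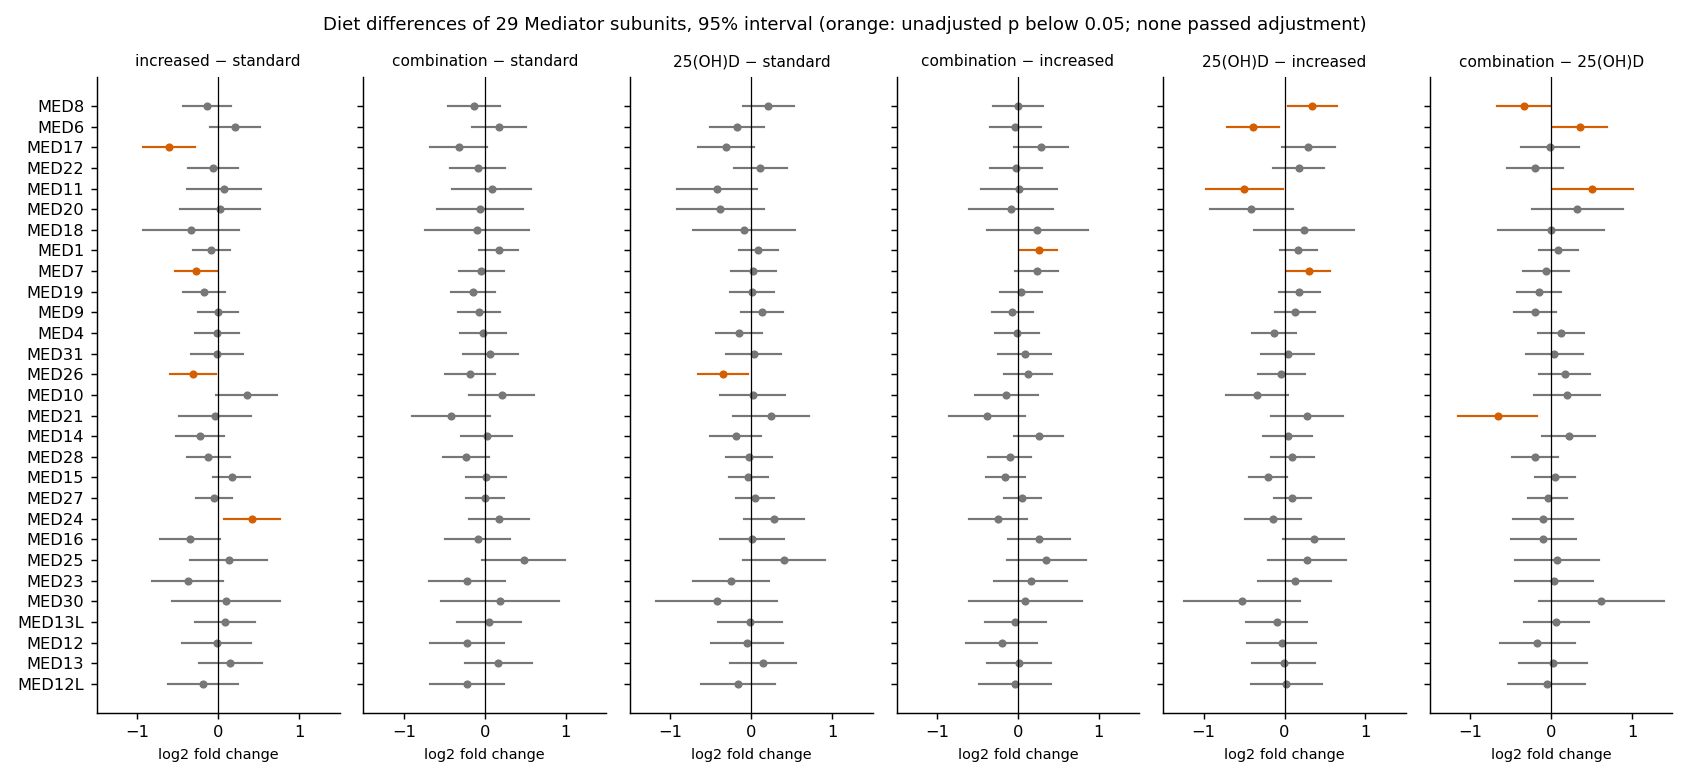
Log2 fold change of each subunit in the 6 diet comparisons, with 95% intervals, ordered by module, in orange where the unadjusted p was below 0.05. Such points number 4, 0, 1, 1, 4 and 4 from left to right, and no member passed adjustment.

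Members were also compared between the 3 diets other than the control. In the combination against increased cholecalciferol, 1 of 29 members, MED1, had an unadjusted p below 0.05, against 4.14% of all genes. The highest change was in MED25 (0.35, SE 0.24) and the lowest in MED21 (−0.38, SE 0.23). These were 0.15 and −0.30 without file numbers 30 to 34, and by limma-voom 0.19 and −0.20. In 25(OH)D against increased cholecalciferol, 4 of 29 did, against 12% of all genes. They were MED6 (−0.39, SE 0.16, p = 0.0190), a head subunit at the border of the middle, MED8 (0.34, SE 0.15, p = 0.0261), which anchors MED18 and MED20, MED7 (0.30, SE 0.13, p = 0.0281) and MED11 (−0.50, SE 0.23, p = 0.0403), the head partner of MED22. The smallest adjusted p among them was 0.344 by edgeR. MED16 was the highest at 0.36 (SE 0.19) and MED30 the lowest at −0.53 (SE 0.35). Without file numbers 30 to 34, 6 members were at an unadjusted p below 0.05, against 1513 of 14804 genes. With a run term 2 were, against 1105 of 13974 genes. The neuron marker list differed in this comparison before adjustment but not after it. Its mean log2 CPM was 8.14 ± 0.34 on 25(OH)D and 8.51 ± 0.38 on increased cholecalciferol (exact permutation p = 0.0496, two-sided, adjusted p = 0.500). Its 7 measured genes summed to 3083 to 5594 and to 3518 to 8864 CPM, and its part in these differences was not tested. The dose and the molecule both differ between these 2 diets.

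In the combination against 25(OH)D, 4 of 29 members had an unadjusted p below 0.05, against 7.57% of all genes. MED21, the partner of MED7, had the lowest change, −0.66 (SE 0.24, p = 0.00924, adjusted p = 0.653, edgeR). It ran from 4.13 to 9.52 CPM on the combination (median 6.95) and from 6.82 to 17.3 CPM on 25(OH)D (median 10.5), with overlapping ranges. Without file numbers 30 to 34 it differed by −0.61 (p = 0.0509). The others were MED8 (−0.34, SE 0.16), MED6 (0.36, SE 0.17) and MED11 (0.51, SE 0.25). MED6 ran from 11.5 to 26.8 CPM on the combination and from 8.73 to 16.9 CPM on 25(OH)D, and MED11 from 2.25 to 11.4 and from 4.14 to 6.82 CPM. The highest combination value of both, 26.8 and 11.4 CPM, came from 1 library, combination replicate 1, without which MED6 differed by 0.21 (p = 0.203) and MED11 by 0.36 (p = 0.163, edgeR). Without file numbers 30 to 34 the same 2 differences were 0.60 (p = 0.00423, adjusted p = 0.227) and 0.81 (p = 0.00492, adjusted p = 0.227). MED30 had the highest change, 0.62 (SE 0.38), which was 1.19 without file numbers 30 to 34 (p = 0.00648, adjusted p = 0.238, edgeR) and 0.97 by limma-voom (p = 0.0148, adjusted p = 0.408). In the last 4 comparisons, from 25(OH)D against the control to the combination against 25(OH)D, members at an unadjusted p below 0.05 numbered 1, 1, 4 and 4 by DESeq2 and 2, 1, 4 and 5 by limma-voom. Of the 13974 genes, 511, 660, 1828 and 1167 were at that p by DESeq2 and 818, 417, 2070 and 1484 by limma-voom.

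For most subunits these data left room only for changes of less than 2-fold. The 95% interval lay inside a 2-fold change in either direction for 29 of 29 members in increased cholecalciferol against the control, for 29 in the combination against the control and for 28 in 25(OH)D against the control. It did so for 29, 28 and 26 members in the other 3 comparisons, in the order given above. Among all genes tested, 68.4 to 74.4% had such an interval. Inside a 1.5-fold change lay 18 or 19 of the 29 members in each of the 6 comparisons, and the matching share of all genes was not counted. The members' median SE in increased cholecalciferol against the control was 0.16, against 0.23 over all genes.

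Tested for any difference among the 4 diets at once, 0 of 29 members passed adjustment (0% of all genes) and 1, MED17, had an unadjusted p below 0.05 (p = 0.00685, adjusted p = 0.731, edgeR), against 6.71% of all genes. The same count was 1 by DESeq2, against 1161 of the 13974 genes, and 3 by limma-voom, against 1650. Between females and castrated males, 0 of 29 members passed adjustment, against 0.0787% of all genes, and 0 had an unadjusted p below 0.05 by edgeR and DESeq2, against 6.58% of all genes. The sex difference was highest in MED30 (0.36) and lowest in MED21 (−0.26), with −0.09 (SE 0.12) for MED17 and 0 to 2 decimals for MED1 (95% interval −0.17 to 0.16). Without file numbers 30 to 34, which hold 4 females and 1 castrated male, these were 0.37, −0.24, −0.10 and −0.08. In that fit 1 member was at an unadjusted p below 0.05, against 1290 of 14804 genes. For the interaction of diet and sex, 0 of 29 members passed adjustment. By edgeR 0 had an unadjusted p below 0.05, against 2.75% of all genes. It was 0 by DESeq2, against 517 of the 13974 genes, and 2 by limma-voom, against 607.

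The proteins that work beside Mediator were counted from lists. None of their genes passed adjustment in any diet comparison. Of the nuclear receptor partners, 11 of 11 were tested. VDR, the receptor itself, had 3.85 ± 2.18 CPM on the control diet (SD, n = 8), 3.16 ± 1.34 on increased cholecalciferol (SD, n = 10), 3.04 ± 1.21 on the combination (SD, n = 8) and 2.03 ± 0.849 on 25(OH)D (SD, n = 8). VDR libraries ran from 1.44 to 7.39 CPM on the control diet and from 0.318 to 3.13 CPM on 25(OH)D, which overlapped. VDR levels were nearly as low as those of MED30, the least abundant member. MED30 averaged 2.62 CPM on the control diet, 2.84 on increased cholecalciferol, 2.79 on the combination and 2.11 on 25(OH)D. The change of VDR from the control to 25(OH)D was −0.98 (SE 0.37, p = 0.0122, adjusted p = 1.00, edgeR), the 1 gene of the 11 at an unadjusted p below 0.05 there, against 3.23% of all genes. In increased cholecalciferol against the control, 2 of the 11 were at that p, against 7.77% of all genes. They were the acetyltransferase EP300 (−0.35, SE 0.14) and RXRA (−0.40, SE 0.18), a partner with which VDR binds DNA. In the combination against the control, RXRG (0.79, SE 0.34) and RXRA (−0.44, SE 0.20) were among those at that p, against 4.34% of all genes. In the combination against increased cholecalciferol it was RXRB (−0.47, SE 0.18), against 4.14% of all genes. In females against castrated males it was RXRG (−0.49, SE 0.23), against 6.58% of all genes.

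Of the kinase module's partners, which the symbol rule leaves out, CDK8, CDK19 and cyclin C (CCNC) were all tested. CCNC was at an unadjusted p below 0.05 in 25(OH)D against increased cholecalciferol (−0.59, SE 0.23, p = 0.0144, adjusted p = 0.336, edgeR), against 12% of all genes. Neither kinase was at that p in any comparison. Of RNA polymerase II subunits, 11 of 13 were tested. In increased cholecalciferol against the control, 3 of the 11 were at that p, against 7.77% of all genes. They were POLR2F (0.58, SE 0.28), POLR2C (−0.31, SE 0.15) and POLR2K (−0.26, SE 0.12). POLR2K was again in 25(OH)D against the control (−0.31, SE 0.12), against 3.23% of all genes. POLR2F was in 25(OH)D against increased cholecalciferol (−0.84, SE 0.28), against 12% of all genes.

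Of the general transcription factors, 13 of 18 were tested. At an unadjusted p below 0.05, 2 were up and 2 down in 25(OH)D against increased cholecalciferol, against 12% of all genes. Likewise 2 were up and 2 down in the combination against 25(OH)D, against 7.57%. In increased cholecalciferol against the control 2 were down, against 7.77%. In the combination against the control 1 was up and 1 down, against 4.34%. For sex 1 was down, against 6.58%. CDK7, the kinase of TFIIH, had −0.39 (SE 0.16) in increased cholecalciferol against the control, 0.51 (SE 0.16) in 25(OH)D against increased cholecalciferol and −0.37 (SE 0.17) in the combination against 25(OH)D. MNAT1, which assembles with CDK7, had 0.54 (SE 0.21) in the combination against the control and 0.72 (SE 0.21) in the combination against 25(OH)D. GTF2F2, a TFIIF subunit, had −0.27 (SE 0.12) and −0.27 (SE 0.13) in increased cholecalciferol and the combination against the control. GTF2A1 of TFIIA had −0.40 (SE 0.19) in 25(OH)D against increased cholecalciferol and 0.47 (SE 0.21) in the combination against 25(OH)D. The remaining ones at that p were GTF2H1 (−0.55, SE 0.19) and ERCC2 (0.39, SE 0.18) of TFIIH in 25(OH)D against increased cholecalciferol, GTF2F1 (−0.35, SE 0.17) in the combination against 25(OH)D and ERCC2 (−0.29, SE 0.13) in females against castrated males. Several of these comparisons share libraries, so a gene with a value in more than 1 of them is not independent evidence.

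More subunits passed a test against the level of cerebellar markers than against diet, and the same held for all genes. That level, the mean log2 CPM of 8 genes that mark cerebellum, ran from 4.52 to 7.66 with a median of 5.45, and values above and below the median occurred on all 4 diets. In a fit with diet, sex and the muscle and cerebellum levels, chosen after seeing the data, 10 of 29 members passed adjustment for the cerebellum level, against 39.5% of all genes, a share near that of the members. MED23 and MED12 had slopes of 0.24 (SE 0.08, adjusted p = 0.0124, edgeR) and 0.24 (SE 0.07, adjusted p = 0.00604) log2 per unit of the level. MED16, MED13 and MED13L had 0.22, 0.21 and 0.21, MED26 had 0.20, MED7 had 0.14, and MED1 and MED27 had 0.11 each. MED28 alone of the 10 had a slope below 0, −0.13 (SE 0.04, adjusted p = 0.0102). MED13, MED13L and MED12 of the kinase module were among the 9 with slopes above 0, while MED12L of that module and MED17 were not among the 10.

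**Figure D5:**
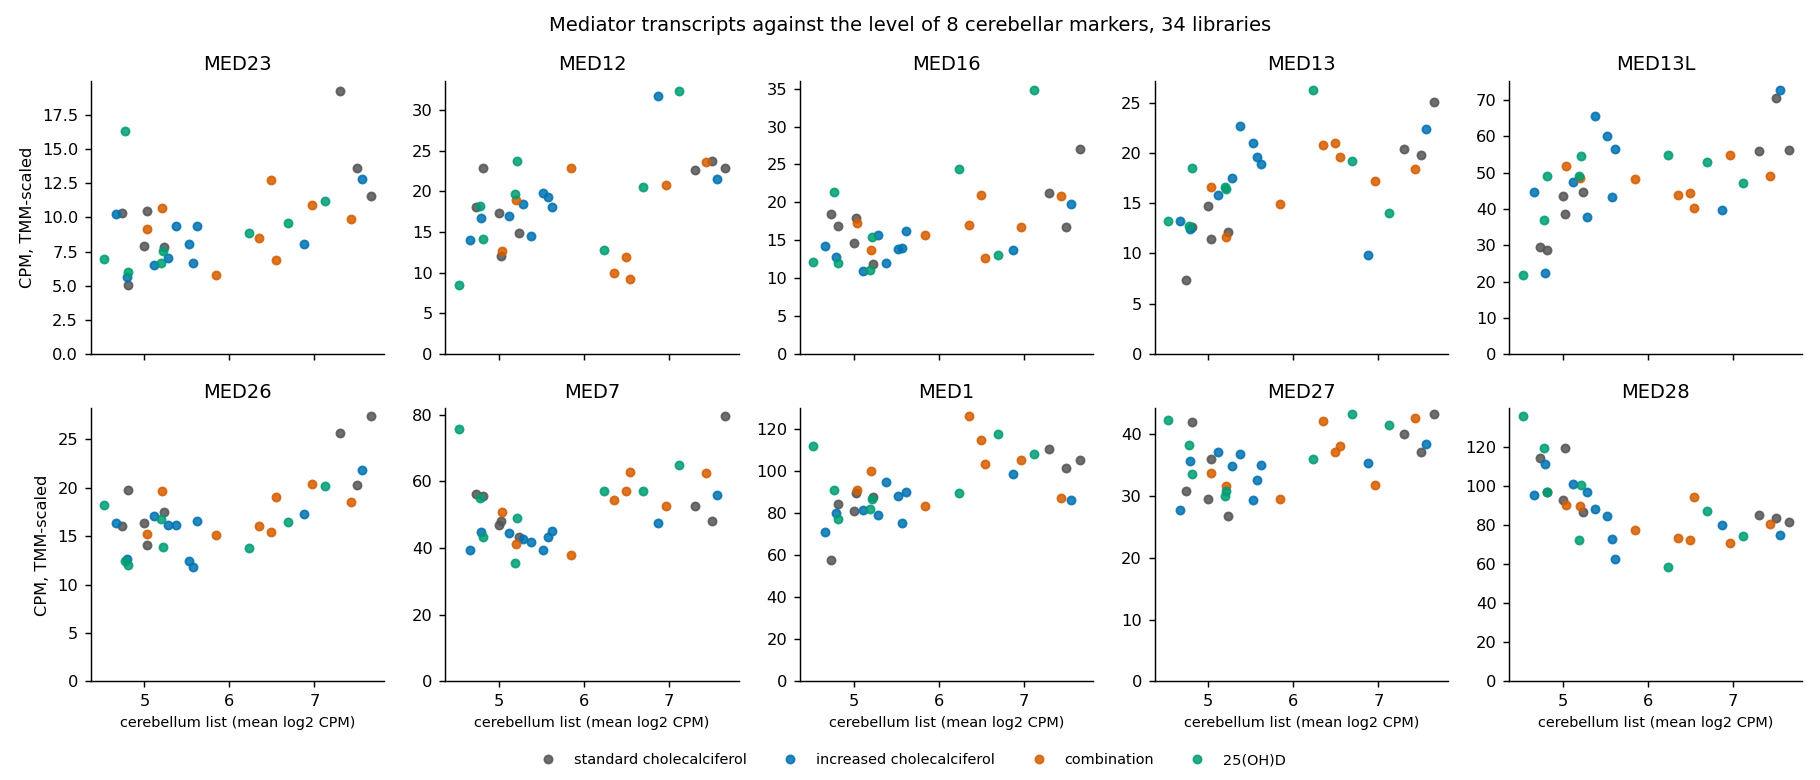
The 10 subunits that passed adjustment for the cerebellum level, each library's CPM (scaled by TMM) against the mean log2 CPM of 8 cerebellar markers, coloured by diet. The fitted slope is above 0 in 9 panels and below 0 in the last, MED28, and the libraries at the right edge include control replicate 1 at 7.66.

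Within file numbers 1 to 24, 7 of 29 members passed adjustment for the cerebellum level, against 31.5% of all genes. The 2 libraries farthest from the median level were control replicate 1 (7.66) and increased cholecalciferol replicate 1 (7.56). Without them 3 members passed, MED12 (0.31), MED26 (0.17) and MED23 (0.27), against 26.5% of all genes, and the slopes of the other 7 kept their sign. For the muscle level, 0 of 29 members passed adjustment by edgeR, against 1.49% of all genes, and 5 had an unadjusted p below 0.05, against 9.68% of all genes. These were MED25 (0.46, SE 0.16), MED17 (−0.24, SE 0.12), MED26 (−0.19, SE 0.09), MED28 (−0.19, SE 0.08) and MED7 (−0.17, SE 0.08). The part that tissue makeup has in the diet differences, beyond the fits with these levels, was not tested.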

How the data were processed

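Per the labels' protocols, Trizol RNA from frozen tissue went into QuantSeq 3′ forward libraries. The authors deposited raw counts, unnormalized, with a file for each library. The submitters' processing notes name FastQC, TopHat, HTSeq and DESeq2. For versions, build, annotation and strand setting: not given in the sources used here. HTSeq's categories were left out. Of all reads, 16.4 to 29.9% lay outside features, 3.63 to 4.68% were ambiguous and 11.2 to 20.7% aligned to several places.

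Diet and sex came from the labels and doses from the series description, which gives the number of individuals on each diet. P-values thus measure the spread between animals. Replicate numbers follow accession order and pair nothing. The closest libraries (25(OH)D replicate 8 and combination replicate 5) had a chi-square of 2.38 per gene, against a median of 31.5 over 561 pairs. This measure rises with depth, and both libraries are of file numbers 30 to 34, the run with the fewest counts. They were kept as separate samples.

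A quasi-likelihood F-test (edgeR 4.0.16, R 4.3.3, two-sided, TMM, expression filter by diet) was fitted with diet and sex over 34 libraries and 13974 genes, with Benjamini-Hochberg adjustment over all genes within a comparison and a threshold of 0.05. SEs were derived from the F statistic. DESeq2 1.42.0 and limma 3.58.1 (voom) were alternatives, as were DESeq2 size factors, no filter, no sex term, a run term, subsets of file numbers, marker list levels (mean log2 CPM, prior count 3) as covariates, the compared diets alone and each library left out. The code was tested on simulated data. Library measures were compared by exact permutation.

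The members, lists and tests were chosen with earlier results of these data known. Named are MED1 and MED17, members at an unadjusted p below 0.05, the highest and lowest change per comparison, the 5 most and 5 least abundant members, and up to 2 genes per direction and related list. An item that this rule names is not reported here. Modules are as generally given.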

Additional observations from a re-analysis of the deposited data

Results flagged for a closer look

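In 9 of 116 groups (29 subunits in 4 diets), the highest or lowest library stood apart from the others of its diet by Dixon's test at the 95% level, which chance alone does in about 1 of 20 groups. Levels are CPM scaled by TMM. The middle subunit MED7 stood out high in control replicate 1, at 79.7 against 43.4 to 56.2, and in increased cholecalciferol replicate 1, at 55.9 against 39.4 to 47.5. These are also the 2 libraries with the highest cerebellum level. MED4, of the middle, was 51.3 in 25(OH)D replicate 6 against 28.3 to 37.8.

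In the kinase module, MED12 was 31.8 in increased cholecalciferol replicate 8 against 14.0 to 21.6, and MED12L was 17.2 in combination replicate 5 against 12.7 to 14.6. The scaffold MED14 was 14.7 in control replicate 2 against 22.9 to 29.4. In the tail, MED15 was 19.5 in 25(OH)D replicate 1 against 31.4 to 40.5, MED25 was 17.0 in increased cholecalciferol replicate 5 against 4.66 to 9.38, and MED30 was 5.49 in 25(OH)D replicate 8, of file numbers 30 to 34, against 0.710 to 2.33. The increased cholecalciferol replicate 5 with high MED25 is also the library with the lowest MED17.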

How the results depend on the processing

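No member passed adjustment in any diet, sex or interaction comparison under the main fit or the alternatives run. MED17 in increased against standard cholecalciferol stayed below 0 with an unadjusted p below 0.05 in all 10 alternatives (−0.68 to −0.47, smallest adjusted p 0.391) and in each of the 34 fits without 1 library (−0.67 to −0.53). The direction changed for small differences. MED1 became 0.024 in increased against standard cholecalciferol with file numbers 1 to 24 alone, and −0.010 in the combination against the control without file numbers 30 to 34. MED1 in the combination against 25(OH)D became −0.067 with a run term, −0.041 without file numbers 30 to 34, −0.045 with numbers 1 to 24 alone and −0.0011 with the marker list levels as covariates. MED17 in that comparison became 0.0039 with limma-voom and 0.019 with those covariates, and ran from −0.069 to 0.049 when each library was left out. MED1 between the sexes ran from −0.030 to 0.028 when each library was left out and was −0.092 with file numbers 1 to 24 alone. The cause of these changes was not tested. The members passing adjustment for the cerebellum level numbered 10, 7 in file numbers 1 to 24 and 3 without the 2 libraries farthest from the median level, where fewer samples were fitted. Members at an unadjusted p below 0.05 in increased against standard cholecalciferol numbered 1 to 5 over the alternatives and 2 to 7 when each library was left out. Fits at these ends had 885 of 13974, 1126 of 14915, 671 of 14101 and 1362 of 13925 genes at that p, in the same order. No paired analysis was possible because the replicate numbers follow accession order. Depth limits the least abundant subunits, and MED30 had 2 reads in its lowest library.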

Other observations

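The kinase module holds either CDK8 or its paralog CDK19. CDK19 transcripts were more abundant on every diet, with means of 55.8 ± 9.32 CPM on the control diet (SD, n = 8), 62.6 ± 12.7 on increased cholecalciferol (SD, n = 10), 58.3 ± 7.91 on the combination (SD, n = 8) and 53.8 ± 7.56 on 25(OH)D (SD, n = 8). CDK8 had 15.7 ± 2.65, 17.1 ± 2.73, 15.9 ± 3.18 and 14.5 ± 1.67 CPM on the same diets. The lowest CDK19 value of the 34 libraries, 40.6 CPM, lay above the highest CDK8 value, 21.6 CPM. The limit given above on comparing levels of different genes holds here too. CCNC, the cyclin that both kinases bind, averaged 17.2 ± 7.48 CPM on 25(OH)D (SD, n = 8) and 25.9 ± 7.40 on increased cholecalciferol (SD, n = 10), with libraries from 7.95 to 27.3 and from 14.8 to 34.2 CPM, which overlapped.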
